A study of Danio rerio with 7 samples.

Results

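Fgf signalling was followed here through 10 named genes: the ligand gene fgf20b, the binding protein gene fgfbp2a, the receptor genes fgfr1a, fgfr2 and fgfr3, the feedback inhibitor genes spry2, spry4 and dusp6, and the ETS transcription factor genes etv4 and etv5b. They were found by symbol in 2 count tables that together list 19648 genes. All 10 have a row in the table of the 12 to 30 hpf timeline (17651 genes), and 9 have one in the table of a second 18 hpf library (18597 genes), where fgfbp2a has no row. The study profiled single cells of the first pharyngeal arch migratory stream of Tg(sox10:nEOS)w18 zebrafish embryos, in which the sox10 promoter drives a photoconvertible nuclear protein. Cells converted by light in the stream were sorted at 12, 14, 18, 20, 24 and 30 hours post-fertilization (hpf), 1 library per age, and at 18 hpf once more. The 6 timeline libraries used 10X Chromium chemistry version 2, and the second 18 hpf library is read as the 1 made with version 3. All embryos carried the same transgene, none was treated, and each library pools several embryos. With 1 library per age there is no replicate of an age.

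Fgf ligands are secreted proteins that bind receptor tyrosine kinases at the cell surface together with heparan sulphate. The receptors act largely through Ras and the MAP kinase cascade, which switches on transcription of ETS factors such as etv4 and etv5b and of the genes for Sprouty proteins and the phosphatase Dusp6, which in turn dampen the cascade. Because these genes respond to the pathway, they are widely used as readouts of it. In the pharyngeal arches, Fgf ligands from the pouch endoderm and the surface ectoderm are known to be needed for the crest-derived cartilage of the face.

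The 7 libraries held 2854 cells, with a median of 10807.5 to 23038 transcripts (unique molecular identifiers, UMIs) per cell, deepest in the second 18 hpf library. Cells were gated by marker UMIs. Ectomesenchyme, the skeletal branch of the crest, had at least 2 of dlx2a (1040 cells), pigment at least 2 of gch2 (98 cells), pouch at least 2 of pax1b (71 cells) and epithelium at least 5 of the keratin cyt1 (103 cells). The 12 cells that passed more than 1 gate were left out. Levels are CPM (the summed counts of a gene in a gate and library, scaled to a common total), given where the gate held at least 10 cells, so a level mixes how many cells hold a transcript with how much each holds. Intervals in brackets are exact 95% Poisson intervals and cover counting error only. As a check of the gates, prrx1a reached 16.5 to 152 CPM in ectomesenchyme and at most 23.5 CPM elsewhere, so these ranges overlapped. pax7a reached 644 to 1212 CPM in pigment and tp63 296 to 514 CPM in epithelium. In the dlx2a gate of 14 hpf, 14 ectomesenchyme genes summed to 333 CPM, 7 of them with counts, against 1387 to 3506 CPM at later ages. 13 pigment genes, sox10 among them, summed to 1575 CPM there. Ungated crest cells of 14 hpf gave 174 and 2061 CPM, so that gate is ectomesenchyme by dlx2a only. The pouch gate was also less clear. Its marker pax1a was at 141 and 161 CPM there and at most 2.25 CPM in epithelium, but the summed level of 13 pouch genes, which include the epithelial genes epcam and cdh1, was 3095 CPM in pouch against 2678 in epithelium in the second 18 hpf library and 1601 against 2182 CPM at 24 hpf, where epithelium was thus higher. In both pouch profiles 12 of the 13 pouch genes had counts, and sox17 was at 0. The gate was no pure endoderm by its genes, since tp63 was also found in it (111 and 221 CPM). epcam, at 903 and 1413 CPM, is on both the pouch and the epithelium list and does not tell them apart. The 15 epithelium genes summed to 18236 CPM in epithelium and 18098 CPM in pouch in the second 18 hpf library. They thus did not separate the 2 gates there, whereas at 24 hpf the sums were 29154 and 13434 CPM. The transcript of sox10 does not mark crest alone in these libraries, since it reached 1020 and 4216 CPM in the pouch gate against 91.1 to 1195 CPM in ectomesenchyme.

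Fgf genes were set unevenly among the 4 gates. Against pigment, ectomesenchyme held more fgf20b, fgfr2, etv4 and etv5b. Against pouch and epithelium, it held less etv4, fgfr1a and fgfr3, and spry4 alone was higher in ectomesenchyme than in epithelium. Of the 9 genes tested, 4 were called higher in ectomesenchyme than in pigment and 0 lower, where of all 7815 genes tested 8.96% were called higher, 12.5% lower and 21.4% either way (edgeR quasi-likelihood test with library as a block, Benjamini-Hochberg adjusted p under 0.05). Against pouch 4 were lower and 0 higher, with 9.26% of all genes called lower, 4.33% higher and 13.6% either way. Against epithelium 4 were lower and 1 higher, with 12.2% of all genes called lower, 5.91% higher and 18.1% either way. Between pouch and epithelium 0 of 9 were called by edgeR, where 1.05% of all genes were (0.409% higher and 0.64% lower in pouch), 2 had an unadjusted p under 0.05, and DESeq2 also called 0. The median fitted log2 difference of the 9 genes was 1.45 against pigment, -0.44 against pouch and -0.86 against epithelium, beside 0.03, 0.01 and 0.06 over all genes tested. Pigment and epithelium were compared with ectomesenchyme in 3 libraries (20 hpf, 24 hpf and the second 18 hpf library) and pouch in 2 (24 hpf and the second 18 hpf library). These comparisons share their ectomesenchyme profiles, so they are not independent of each other.

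**Figure D1:**
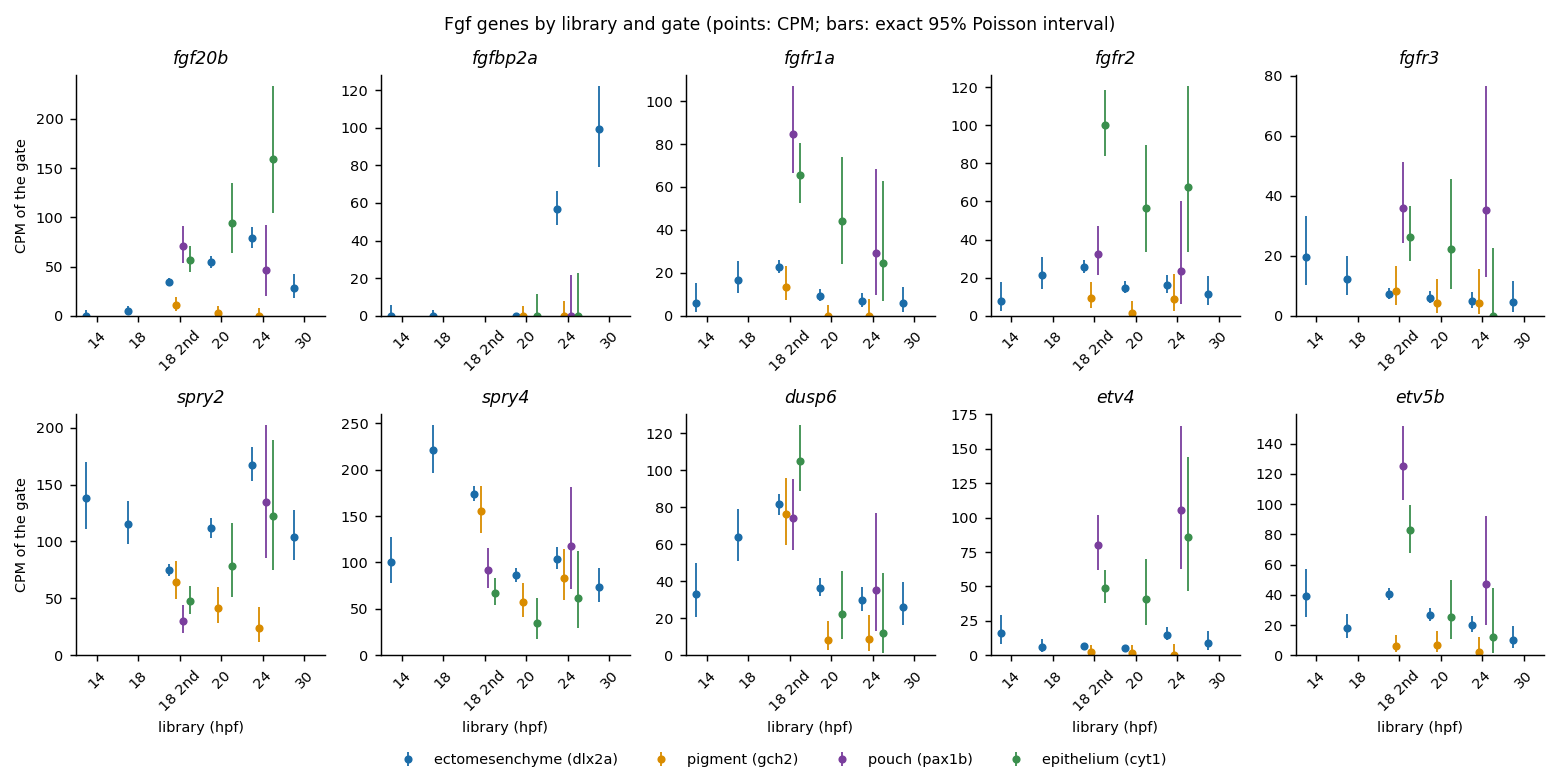
Level of each of the 10 genes (vertical axis, CPM of the summed gate) by library (horizontal axis, hpf; 18 2nd is the second 18 hpf library), with 1 colour per gate and bars for exact 95% Poisson intervals. etv4 sits at 80.1 and 106 CPM in pouch and at 16.5 CPM or less in every ectomesenchyme library, whereas among ectomesenchyme libraries spry4 and dusp6 are highest in the 2 of 18 hpf.

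fgf20b encodes a secreted ligand of the Fgf9 subfamily. In ectomesenchyme its level was 0 CPM at 14 hpf and 4.56 CPM (1.67 to 9.93) at 18 hpf. It then stood at 54.6 (48.7 to 61.0) at 20, 79.0 (69.2 to 89.9) at 24 and 28.5 (18.4 to 42.0) at 30 hpf, and at 34.5 (30.9 to 38.3) in the second library of 18 hpf. The 0 at 14 hpf came from 55 cells and sets a limit of 5.45% on the share with a UMI (3 cells of the total, as for every such limit here). The gene was thus near 0 in the youngest dlx2a cells, which were low in other ectomesenchyme genes, and highest at 24 hpf. The 2 libraries of 18 hpf, which differ in chemistry and depth, lay far apart. In pigment fgf20b was at 10.4, 2.80 and 0 CPM in the second 18 hpf, 20 hpf and 24 hpf libraries, below every ectomesenchyme library compared. The fitted difference was 3.19 ± 0.63 (log2, SE; edgeR adjusted p = 0.00370; higher in ectomesenchyme in 3 of 3 libraries). Without the 20 hpf library it was 2.82 and did not pass (edgeR adjusted p = 0.0751), where calls over all genes also fell from 1673 to 486. Without the library block it was 2.76 and did not pass either (edgeR adjusted p = 0.0791).

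fgf20b was no marker of ectomesenchyme alone. Epithelium held 56.3, 94.6 and 159 CPM in the second 18 hpf, 20 hpf and 24 hpf libraries, in each case above the ectomesenchyme of the same library, and pouch held 70.5 and 46.9 CPM. The difference from epithelium was -0.86 ± 0.47 (log2, edgeR adjusted p = 0.234), and that from pouch -0.38 ± 0.57 (edgeR adjusted p = 0.745). Fitted on ectomesenchyme and epithelium alone, the first of these was -0.88 and passed (edgeR adjusted p = 0.00993). At 24 hpf, 42.1% of 209 ectomesenchyme cells had a UMI of fgf20b (exact Clopper-Pearson 95% interval 35.3 to 49.1%), and 9 of 12 epithelial cells had one. In pigment it was 0 of 31 cells, a limit of 9.68% by the rule of 3 cells. Thinned to 5000 UMIs per cell, the ectomesenchyme share was 27.8%.

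fgfbp2a encodes an Fgf binding protein, a class of secreted proteins that in mammals can carry Fgf ligands away from the matrix. It was seen in ectomesenchyme at 24 hpf (56.8 CPM, 48.5 to 66.1, 166 counts) and 30 hpf (99.1 CPM, 79.4 to 122, 87 counts) and had 0 counts there at 14, 18 and 20 hpf. The 0 at 20 hpf came from 280 cells and sets a limit of 1.07% on the share with a UMI. At 24 hpf all 166 counts of the gated cells lay in ectomesenchyme, with 0 in pigment, pouch and epithelium. Set against 3 counts in each of those profiles, fgfbp2a was at least 8.84-fold higher in ectomesenchyme than in pigment, 3.23-fold than in pouch and 3.09-fold than in epithelium. No test is given for these differences, since fgfbp2a was at 0 in every gate at 20 hpf and has no row in the second 18 hpf table, so that 1 library bears on them.

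**Figure D2:**
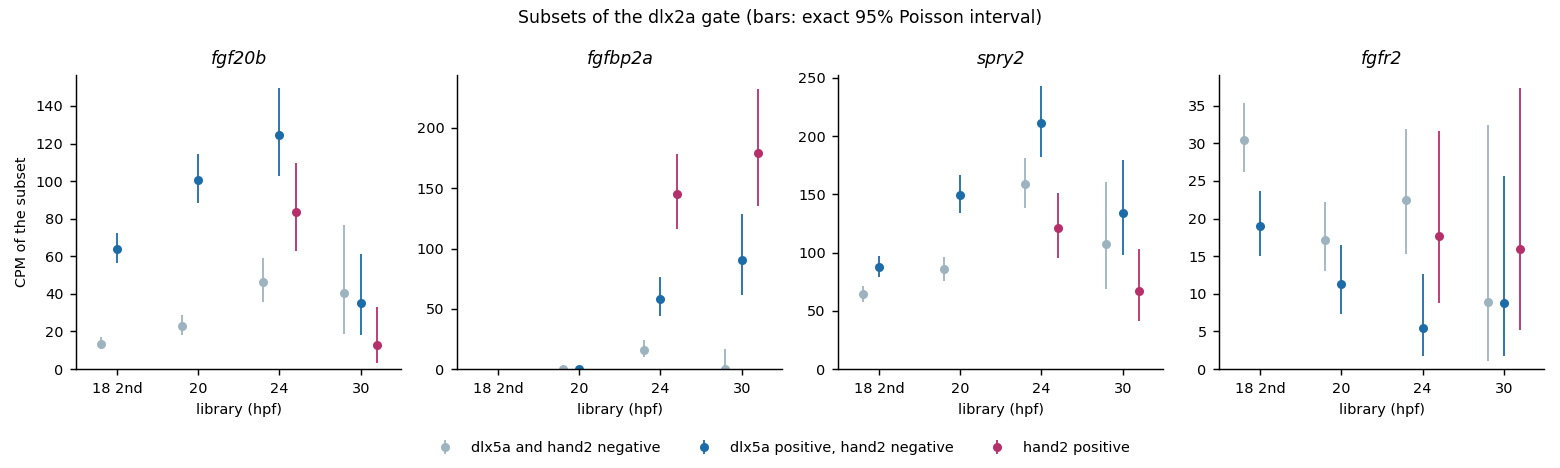
Levels of fgf20b, fgfbp2a, spry2 and fgfr2 (vertical axes, CPM) by library (horizontal axes, hpf) in subsets of the dlx2a gate, with exact 95% Poisson intervals. fgfbp2a is highest in the hand2 positive cells of 24 and 30 hpf (145 and 179 CPM), and fgf20b in the dlx5a positive, hand2 negative cells of 24 hpf (124 CPM).

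Within the dlx2a gate at 24 hpf, fgf20b and fgfbp2a had their highest levels in different subsets, and both were found in each subset. The gate was split by dlx5a, which marks the ventral and intermediate arch, and hand2, which marks the ventral tip. The split was chosen after the values were seen and is a description with no test. In cells with a UMI of dlx5a and none of hand2, fgf20b stood at 64.1, 101 and 124 CPM in the second 18 hpf, 20 hpf and 24 hpf libraries, against 13.6, 22.9 and 46.4 CPM in cells with neither gene. That is a ratio of 4.71, 4.40 and 2.68, whereas at 30 hpf the levels were 35.0 and 40.4 CPM with overlapping intervals. The hand2 positive subset held at least 10 cells at 24 and 30 hpf only. There fgf20b stood between the other subsets at 24 hpf (83.8 CPM, 22.5% of its counts in 21.1% of the cells). Its interval, 62.6 to 110, overlapped that of the dlx5a positive, hand2 negative cells, 103 to 149. At 30 hpf hand2 positive cells held 12.8 CPM of fgf20b on 4 counts. fgfbp2a was highest in hand2 positive cells, at 145 and 179 CPM at 24 and 30 hpf, lower in dlx5a positive, hand2 negative cells (58.4 and 90.5 CPM, 32.5% of its counts at 24 hpf), and lowest in cells with neither (16.0 and 0 CPM). Whether single cells held both transcripts was not tested. The ratios that follow set dlx5a positive, hand2 negative cells against cells with neither gene. spry2 was higher in the former in each of the 4 libraries, from 1.25 to 1.75 times, with the intervals apart in 3 of them. In hand2 positive cells spry2 was lower than in both, at 121 CPM at 24 hpf and 67.2 CPM at 30 hpf. Cells with neither gene held 159 and 108 CPM there, with intervals that overlapped those of hand2 positive cells. fgfr2 was lower in the dlx5a positive, hand2 negative cells, at 0.622, 0.657 and 0.241 times in the second 18 hpf, 20 hpf and 24 hpf libraries. The intervals overlapped at 20 hpf and lay apart in the second 18 hpf and 24 hpf libraries, the last on 5 counts. At 30 hpf fgfr2 stood at 0.976 times. In hand2 positive cells fgfr2 was at 17.7 and 16.0 CPM at 24 and 30 hpf, against 22.5 and 8.98 CPM in cells with neither gene. fgfr3 was at 0.641, 0.443 and 0.497 times in the same 3 libraries, with overlapping intervals in each. At 30 hpf it had 0 counts against 2, too few to read a difference. For the ETS genes, etv4 stood at 1.35, 1.88 and 1.04 times in the second 18 hpf, 20 hpf and 24 hpf libraries. etv5b stood at 1.09, 1.09 and 1.43 times, and the intervals of both genes overlapped in each library. At 30 hpf each had 3 counts in either subset, so no difference is read there. The ratio was 0.769 to 1.02 for spry4 and 0.569 to 1.16 for dusp6 over the 4 libraries, and 0.995 to 1.27 for fgfr1a over the first 3.

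Of the receptor genes, fgfr1a was highest outside the crest gates. In ectomesenchyme it stood at 22.7, 9.36 and 6.84 CPM in the second 18 hpf, 20 hpf and 24 hpf libraries, in epithelium at 65.4, 44.2 and 24.5 CPM, and in pouch at 84.9 CPM (second 18 hpf) and 29.3 CPM (24 hpf). Each library's ectomesenchyme was thus below its epithelium and pouch, and in all 3 gates the second 18 hpf library was highest. The difference from pouch was -2.04 ± 0.53 (edgeR adjusted p = 0.0233; 0.0756 by DESeq2) and that from epithelium -1.83 ± 0.46 (edgeR adjusted p = 0.0156; 0.105 without the 20 hpf library). In pigment fgfr1a had 13 counts in the second 18 hpf library (13.6 CPM) and 0 at 20 and 24 hpf. The difference from pigment, 1.45 ± 0.58, did not pass (edgeR adjusted p = 0.0994), but did without the second 18 hpf library (0.0116) and with no filter on low counts (0.0376).

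fgfr2 was the receptor gene that set epithelium apart. Its level in epithelium was 99.9 CPM in the second 18 hpf library, 56.8 at 20 hpf and 67.4 at 24 hpf, against 25.7, 14.7 and 16.1 CPM in ectomesenchyme and 9.40, 1.40 and 8.57 CPM in pigment. The 3 gates did not overlap. The difference of ectomesenchyme from epithelium was -2.03 ± 0.33 (edgeR adjusted p = 0.000799) and passed in all 18 alternatives, not all of which could move it. That from pigment was 1.56 ± 0.43 (edgeR adjusted p = 0.0220) and was lost without the 20 hpf library (adjusted p = 0.273), without the second 18 hpf library (1.73; 0.0641), with gates at 1 UMI (1.27; 0.0738), without the library block (1.37; 0.0796) and in a fit on the 2 gates alone (1.61; 0.0547). Pouch stood at 32.3 and 23.5 CPM, near ectomesenchyme (-0.44 ± 0.43, edgeR adjusted p = 0.567) and below epithelium (-1.59 ± 0.44, unadjusted p = 0.00350, edgeR adjusted p = 0.149).

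fgfr3 was low in both crest gates and higher in pouch. Ectomesenchyme held 7.27, 6.01 and 4.79 CPM in the second 18 hpf, 20 hpf and 24 hpf libraries and pigment 8.35, 4.20 and 4.28 CPM, while pouch held 35.9 CPM (second 18 hpf) and 35.2 CPM (24 hpf). The difference between ectomesenchyme and pouch was -2.55 ± 0.53 (edgeR adjusted p = 0.00679), and that between ectomesenchyme and pigment was 0.06 ± 0.55 (0.962). Epithelium held 26.3 and 22.1 CPM in the second 18 hpf and 20 hpf libraries and 0 at 24 hpf. That 0 came from 12 cells, a limit of 25% on the share with a UMI. In that profile 3 counts would be 18.4 CPM, above the 4.79 CPM of ectomesenchyme, so its direction is not settled. The difference from epithelium, -1.65 ± 0.47, passed (edgeR adjusted p = 0.0293), with ectomesenchyme lower in 2 of 3 libraries only. By the same test it was lost without the 20 hpf library (-1.49, adjusted p = 0.266), without the second 18 hpf library (-1.30, 0.435) and without the library block (-1.14, 0.220).

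**Figure D3:**
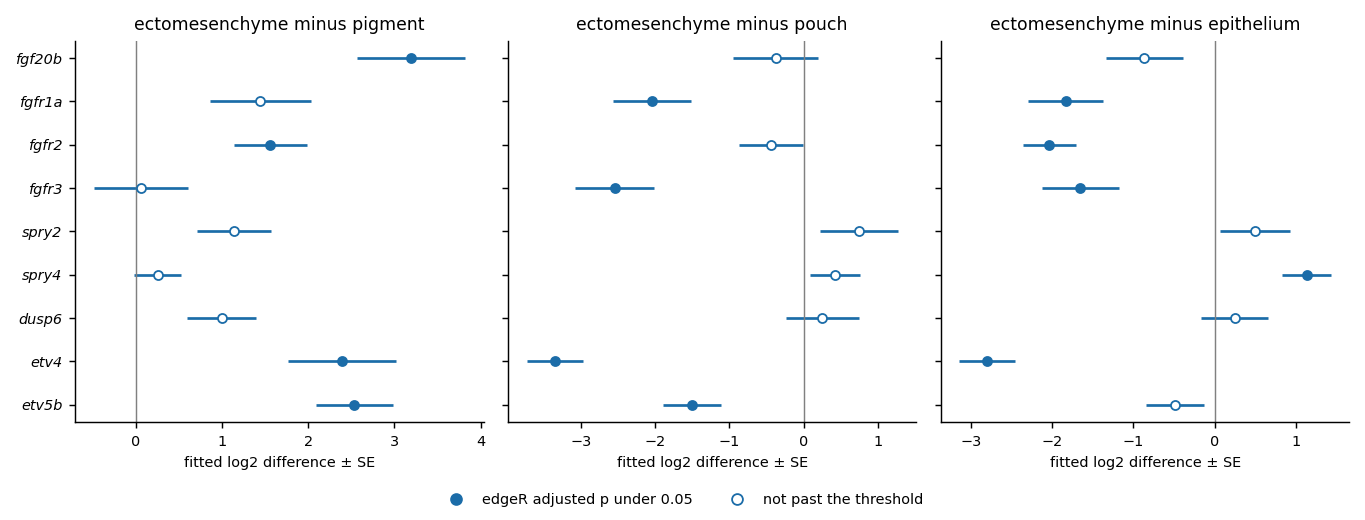
Fitted log2 difference of ectomesenchyme from pigment, pouch and epithelium for the 9 genes with a row in both tables (points, with bars for 1 SE; filled where the edgeR adjusted p is under 0.05). Filled points lie right of 0 in the pigment panel (4) and left of 0 in the pouch panel (4), and the epithelium panel has 4 on the left and spry4 on the right.

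The ETS factor etv4, a target of the pathway, gave the largest differences of the 9 genes from pouch and epithelium. Pouch held 80.1 CPM in the second 18 hpf library and 106 CPM at 24 hpf, and epithelium 48.8, 41.0 and 85.8 CPM in the second 18 hpf, 20 hpf and 24 hpf libraries. Ectomesenchyme held 6.77, 5.30 and 15.1 CPM there, and pigment 2.09, 1.40 and 0 CPM on 3 counts in all. The differences were -3.35 ± 0.38 from pouch (edgeR adjusted p = 7.4e-05) and -2.80 ± 0.34 from epithelium (9.8e-05), with no overlap. No call was lost in the 14 and 18 alternatives run, not all of which could move these differences. The difference from pigment, 2.39 ± 0.62 (edgeR adjusted p = 0.0169), was less firm. It fell to 0.14 (0.854) with gates at 1 UMI and was lost without the 20 hpf library (2.58; 0.107), without the 24 hpf library (1.81; 0.0818) and in a fit on the 2 gates alone (2.45; 0.0567).

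Its relative etv5b, likewise a target, separated pigment from ectomesenchyme more firmly. Pigment held 6.26, 7.00 and 2.14 CPM in the second 18 hpf, 20 hpf and 24 hpf libraries, and ectomesenchyme 40.6, 26.9 and 20.2 CPM. The ranges did not overlap, and the difference of 2.53 ± 0.45 (edgeR adjusted p = 0.00185) passed in all 18 alternatives, not all of which could move it. Pouch was higher still, at 125 and 46.9 CPM (-1.50 ± 0.39 for ectomesenchyme minus pouch, edgeR adjusted p = 0.0241; 0.0939 without the 20 hpf library, which holds no pouch profile and enters through the shared spread). In epithelium etv5b varied with the library, from 82.6 CPM in the second 18 hpf library to 25.2 at 20 hpf and 12.3 at 24 hpf, the last on 2 counts. It was above ectomesenchyme in 1 library of 3 (-0.49 ± 0.35, edgeR adjusted p = 0.382).

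Among the feedback genes spry4 was called lower in epithelium than in ectomesenchyme, and no other gate difference of spry2, spry4 or dusp6 passed. spry4 encodes a Sprouty protein, an inhibitor of receptor tyrosine kinase signalling. Its ectomesenchyme level was 221 CPM (197 to 248) at 18 hpf and 174 (166 to 182) in the second library of that age. The other ages gave 101 (78.0 to 128) at 14, 86.0 (78.6 to 94.0) at 20, 104 (92.6 to 116) at 24 and 74.0 (57.1 to 94.4) at 30 hpf. Both 18 hpf libraries, which differ in chemistry, lay above all others, with intervals apart. The part of age, chemistry and library in this was not tested. In pigment spry4 was at 156 CPM in the second 18 hpf library and at 57.4 and 83.5 CPM at 20 and 24 hpf, and the difference from it did not pass (0.26 ± 0.27, edgeR adjusted p = 0.544). Epithelium held 67.6, 34.7 and 61.3 CPM, below ectomesenchyme in 3 of 3 libraries (1.13 ± 0.30, edgeR adjusted p = 0.0198). This call was lost without the 20 hpf library (1.05; 0.208), without the second 18 hpf library (0.98; 0.151) and without the library block (1.26; 0.0631). Pouch held 92.0 and 117 CPM (0.42 ± 0.34 for ectomesenchyme minus pouch, edgeR adjusted p = 0.461).

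dusp6, the gene of a phosphatase that inactivates ERK, followed the same libraries. Ectomesenchyme held 63.9 CPM (50.9 to 79.1) at 18 hpf and 81.5 (76.0 to 87.2) in the second library of that age. The level was 33.0 (20.7 to 50.0) at 14, 36.6 (31.8 to 41.9) at 20, 29.8 (23.8 to 36.7) at 24 and 26.2 (16.6 to 39.3) at 30 hpf. Again both 18 hpf libraries were highest. All 4 gates of the second 18 hpf library were high, at 81.5 CPM in ectomesenchyme, 76.2 in pigment, 74.1 in pouch and 105 in epithelium. At 20 and 24 hpf pigment stood at 8.40 and 8.57 CPM, below ectomesenchyme. The difference from pigment therefore hung on the second 18 hpf library: it was 1.00 ± 0.40 (edgeR adjusted p = 0.0970) with it and 1.92 (0.00733) without it. The differences from pouch and from epithelium were both 0.25 (± 0.49 and ± 0.41; edgeR adjusted p = 0.813 and 0.734). Age, chemistry and library cannot be told apart in the second 18 hpf values, and the part of free RNA in them was not tested. In that library, 138 ungated cells with the leukocyte gene lcp1 held 20.4 CPM of spry4, 65.8 CPM of dusp6 and 0 counts of fgf20b.

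spry2, the other Sprouty gene, had counts in all 14 profiles of gate and library. Ectomesenchyme held 138 CPM at 14 hpf, 116 at 18 hpf, 74.7 in the second 18 hpf library, 112 at 20 hpf, 167 at 24 hpf and 104 at 30 hpf. It was lowest in the second 18 hpf library, where spry4 and dusp6 were high. Pigment held 64.7, 42.0 and 23.6 CPM in the second 18 hpf, 20 hpf and 24 hpf libraries, below ectomesenchyme in 3 of 3. The difference of 1.14 ± 0.43 did not pass (edgeR adjusted p = 0.0769) but did without the second 18 hpf library (1.93; 0.000775), with gates at 1 UMI (1.28; 0.0220), with at least 20 cells a profile (1.25; 0.0321), without the library block (1.45; 0.0330) and with no filter on low counts (1.17; 0.00689). Pouch held 29.9 and 135 CPM and epithelium 47.3, 78.8 and 123 CPM, and neither difference passed (0.74 ± 0.52 from pouch, edgeR adjusted p = 0.397; 0.50 ± 0.43 from epithelium, 0.469).

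Between pouch and epithelium, the 2 genes with an unadjusted p under 0.05 were fgfr2, lower in pouch as given above, and etv5b (1.02 ± 0.41 for pouch minus epithelium, unadjusted p = 0.0278, edgeR adjusted p = 0.411). The others stood at 0.89 ± 0.56 for fgfr3, 0.71 ± 0.36 for spry4, 0.56 ± 0.38 for etv4, 0.21 ± 0.57 for fgfr1a, -0.24 ± 0.55 for spry2, -0.48 ± 0.60 for fgf20b and 0.00 ± 0.48 for dusp6. Their edgeR adjusted p lay from 0.583 to 1.

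**Figure D4:**
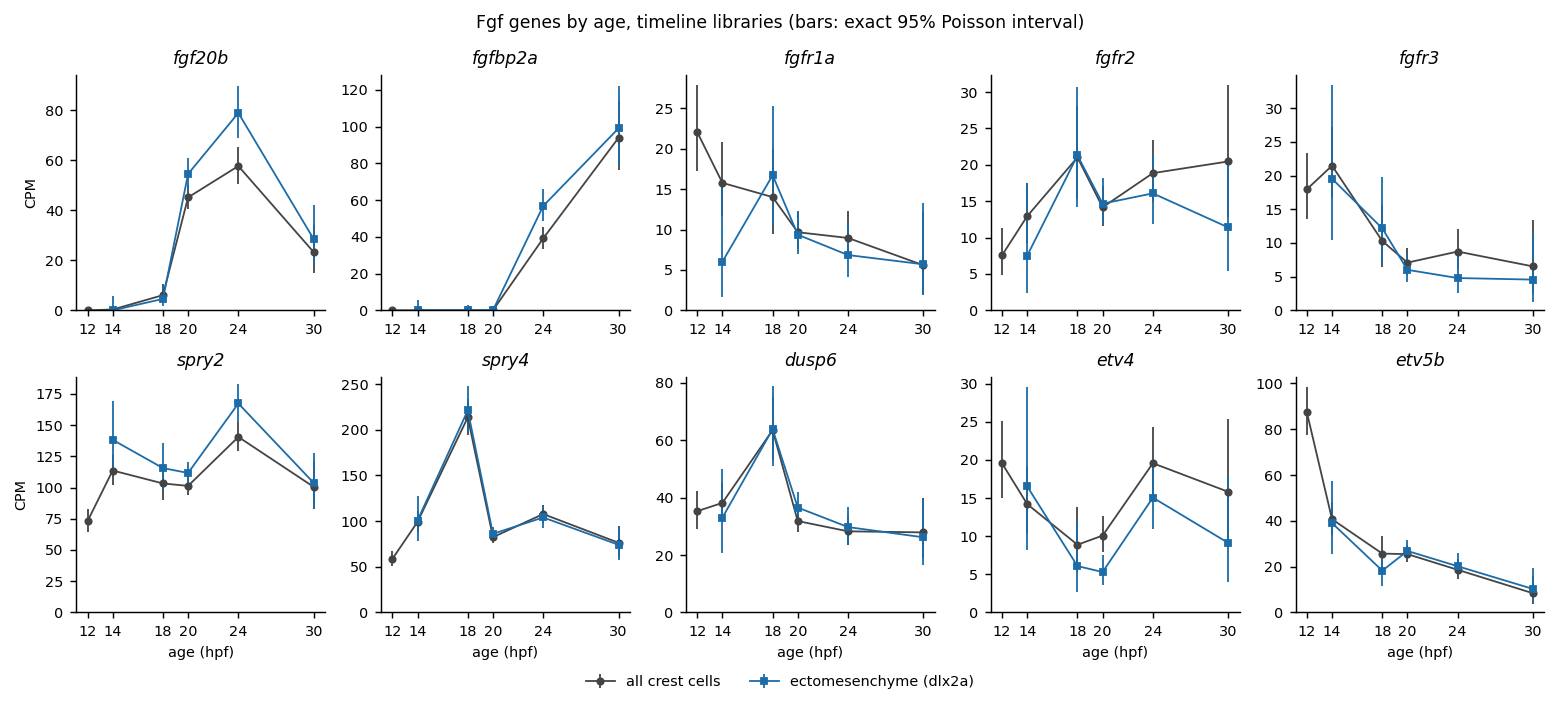
Level of each gene (vertical axis, CPM) against age (horizontal axis, hpf) in the 6 timeline libraries, for all crest cells and for the ectomesenchyme gate, with exact 95% Poisson intervals. etv5b falls from 87.3 to 8.37 CPM in crest cells, fgfbp2a appears at 24 hpf, and spry4 and dusp6 peak at 18 hpf.

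A second question was how the genes moved with age. Crest cells were taken as those with at least 2 UMIs of sox10, dlx2a or gch2 that passed neither the pouch nor the epithelium gate, and a straight line in hours was fitted over the 6 timeline libraries. The makeup of this set changed with age. Cells of the dlx2a gate were 4 of 218 at 12 hpf, 280 of 369 at 20 hpf and 67 of 85 at 30 hpf. A slope can thus hold makeup as well as change within cells, and the part of each was not tested. Of the 10 genes, 1 fell and 1 rose (edgeR, adjusted p under 0.05), where 1.29% of 9129 genes fell, 1.88% rose and 3.18% were called either way. etv5b was at 87.3 CPM (77.3 to 98.2) at 12 hpf, 40.7 at 14, 25.7 at 18, 25.5 at 20, 18.6 at 24 and 8.37 (3.83 to 15.9) at 30 hpf, and so fell or held level at each step. Its slope was -0.17 ± 0.02 log2 units per hour (edgeR adjusted p = 0.0146; -0.13 and 0.0913 without the 12 hpf library; -0.17 and 0.0682 without the 24 hpf library). fgfbp2a had 0 counts from 12 to 20 hpf and stood at 39.1 CPM at 24 hpf and 94.0 CPM at 30 hpf. Its rise was called (edgeR adjusted p = 0.0267), but not without the 12, 14 or 18 hpf library (0.0885, 0.113 and 0.0575) or by DESeq2 (0.158), and the fitted slope of a gene with such zeros is no measure of a rate.

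The other 8 genes did not pass in crest cells. fgf20b had 0 counts at 12 hpf and stood at 0.316, 6.07, 45.2, 57.8 and 23.3 CPM at 14, 18, 20, 24 and 30 hpf. The straight line over this rise and fall had a slope of 0.37 ± 0.15 per hour (edgeR adjusted p = 0.233). It passed without the 30 hpf library (0.70; 0.0277) and by DESeq2 (0.57; 0.00496). fgfr1a went from 22.1 CPM at 12 hpf to 5.58 at 30 hpf (-0.10 ± 0.03 per hour, edgeR adjusted p = 0.0709) and fgfr3 from 18.0 to 6.51 CPM (-0.10 ± 0.03, 0.125). Those 2 receptor genes were lowest at 30 hpf, where fgfr2 was at 20.5 CPM after 7.57 at 12 hpf (0.06 ± 0.03, edgeR adjusted p = 0.323). spry4, at 214 CPM at 18 hpf against 58.6 at 12 and 76.3 at 30 hpf, had a slope near 0 (0.00 ± 0.05, 0.976 by edgeR). dusp6 stood at 35.3 CPM at 12 hpf, 63.5 at 18 hpf and 27.9 at 30 hpf (-0.03 ± 0.03, edgeR adjusted p = 0.663), and spry2 between 73.1 CPM at 12 hpf and 140 CPM at 24 hpf (0.02 ± 0.02, 0.539). etv4 was lowest at 18 hpf, at 8.88 CPM, with 19.5 CPM at 12 hpf and 19.6 at 24 hpf (0.01 ± 0.03, edgeR adjusted p = 0.947). The crest set holds cells with epithelial genes late in the series. When cells with at least 2 UMIs of epcam, cdh1, gata5, lcp1, cdh5 or sox3 were taken out, an alternative added after seeing the data, the slopes of etv5b (-0.17; edgeR adjusted p = 0.0110) and fgfbp2a (0.70; 0.0232) still passed.

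Within ectomesenchyme, over 5 libraries from 14 to 30 hpf, 0 of the 10 genes were called by edgeR or by DESeq2, where edgeR called 1.07% of 6447 genes (0.605% rising and 0.465% falling). By unadjusted p under 0.05 there were 3: fgfbp2a (0.62 ± 0.15 per hour, edgeR adjusted p = 0.0983), etv5b (-0.10 ± 0.03, 0.206) and fgfr3 (-0.16 ± 0.06, 0.237). With no filter on low counts fgfbp2a passed. The signs of these 3 were those of the whole crest. The line includes the 14 hpf profile, which was low in ectomesenchyme genes other than dlx2a. fgf20b, whose peak at 24 hpf lies inside the range, had a slope of 0.18 ± 0.12 (edgeR adjusted p = 0.520). The slopes of the other 6 were -0.06 ± 0.06 for fgfr1a, -0.01 ± 0.05 for fgfr2, -0.01 ± 0.02 for spry2, -0.06 ± 0.04 for spry4, -0.05 ± 0.04 for dusp6 and 0.00 ± 0.06 for etv4, with edgeR adjusted p from 0.558 to 0.996.

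**Figure D5:**
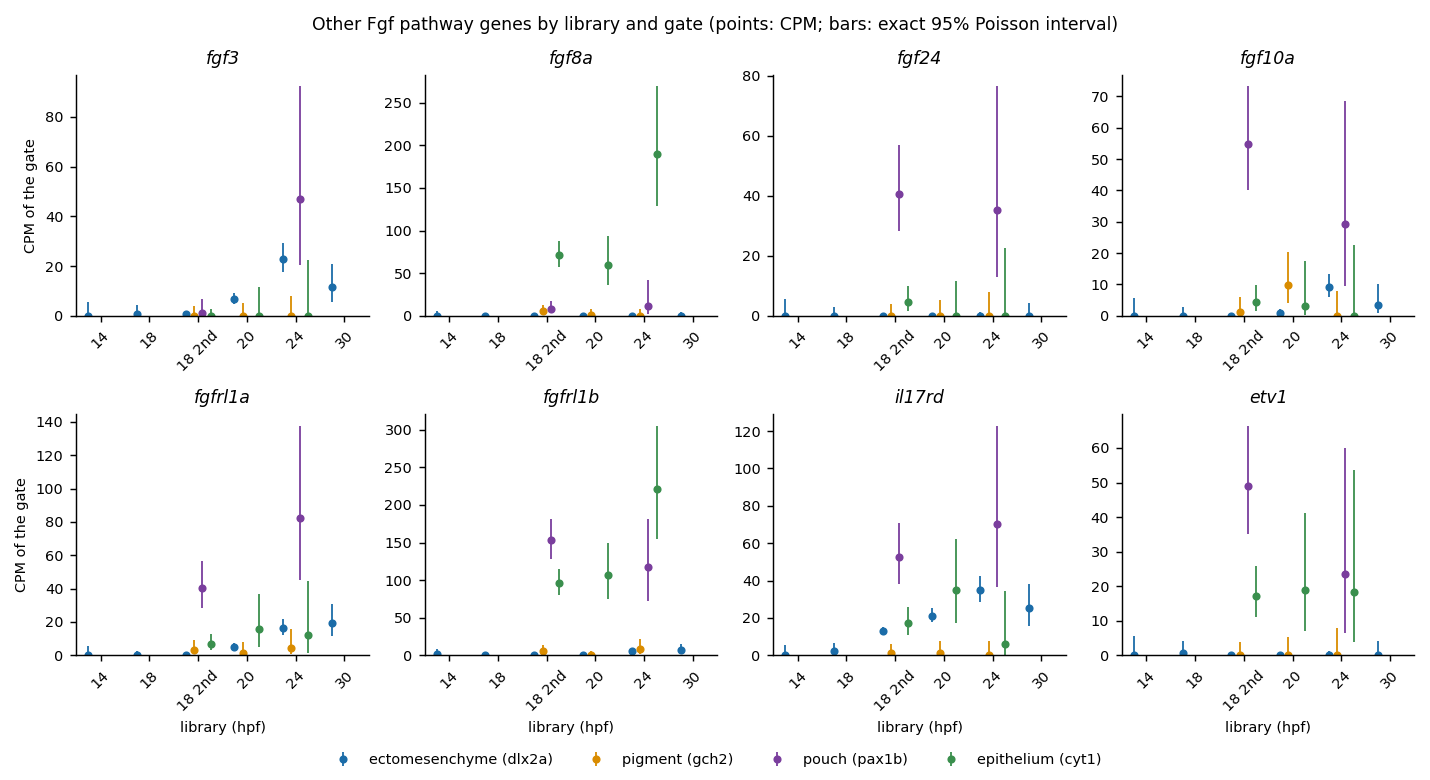
Levels of 8 other genes of the pathway (vertical axis, CPM) by library (horizontal axis, hpf) and gate, with exact 95% Poisson intervals. fgf8a is highest in epithelium, fgf24 in pouch, and fgfrl1b and etv1 in both, whereas il17rd is near 0 in pigment.

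The rest of the pathway was read from a list of 92 further genes, of which 43 had enough counts to test between gates. Against pigment 8 were called higher in ectomesenchyme and 1 lower, against pouch 0 higher and 12 lower, and against epithelium 0 higher and 10 lower. As shares these are 20.9%, 27.9% and 23.3%, beside the 21.4%, 13.6% and 18.1% of all genes. Of 30 ligands listed 4 were tested. Of these, 3 were called lower than in pouch and 2 lower than in epithelium, where 9.26% and 12.2% of all genes were. A gene could have enough counts to test without ectomesenchyme, as fgf8a and fgf24 did. A call as lower in ectomesenchyme was then nearly fixed beforehand, so these shares are no result about ligands. The same limit holds for other genes of the list tested through other gates, such as etv1. fgf8a, an arch ectoderm ligand, stood at 71.4, 59.9 and 190 CPM in epithelium and 8.37 and 11.7 CPM in pouch, with 1 count in the ectomesenchyme of the 3 libraries (edgeR adjusted p = 1.1e-06 against epithelium). It was also the 1 list gene called between pouch and epithelium (-3.46 ± 0.63, edgeR adjusted p = 0.0244), a call lost by DESeq2 (0.0694), without the library block (0.0579), without the 20 hpf library (0.0992) and with gates at 1 UMI (0.233). fgf24 stood at 40.6 and 35.2 CPM in pouch with 0 counts in ectomesenchyme, at least 172-fold lower against a floor of 3 counts over both libraries (edgeR adjusted p = 0.00211; 0.245 by DESeq2).

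fgf10a, at 55.0 and 29.3 CPM in pouch against 0 and 9.24 CPM in ectomesenchyme, was called as well (-4.92 ± 1.36, edgeR adjusted p = 0.0322; 0.225 by DESeq2; 0.120 without the 20 hpf library). Of the 4 ligands tested against pigment, 1 was called higher in ectomesenchyme and 1 lower, where 8.96% and 12.5% of all genes were. The higher one was fgf3, at 0.498, 6.54 and 22.9 CPM in the ectomesenchyme of the second 18 hpf, 20 hpf and 24 hpf libraries. With 0 counts in pigment it was at least 4.17-fold higher (edgeR adjusted p = 0.0237), a call lost in 5 of 16 alternatives, among them those without the 20 hpf (0.146) or the 24 hpf library (0.189) and DESeq2 (0.0780), and it stood at 46.9 CPM in the pouch of 24 hpf.

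Among 7 receptor and binding protein genes of the list, 3 were lower than in pouch and 2 lower than in epithelium. As shares these are 42.9% and 28.6%, beside 9.26% and 12.2% of all genes. The decoy receptor gene fgfrl1b stood at 153 and 117 CPM in pouch, 96.2, 107 and 221 CPM in epithelium and at most 6.83 CPM in ectomesenchyme (-6.36 ± 0.71 from pouch, edgeR adjusted p = 6.7e-05). fgfrl1a was 3.89 ± 0.77 log2 units higher in pouch (edgeR adjusted p = 0.00535; 0.0675 without the library block) and rose with age in crest (0.27 ± 0.05 per hour, 0.0336), a call lost without the 12, 14, 18 or 24 hpf library (0.0984, 0.111, 0.0527 and 0.103). fgfr1b was lower than in epithelium (-1.65 ± 0.49, edgeR adjusted p = 0.0359), a call lost in 6 of 18 alternatives and without any 1 of the 3 libraries (0.0609 to 0.159). flrt3, whose protein binds Fgf receptors, was at 21.9, 0 and 0 CPM in pigment against 40.2, 51.8 and 24.3 in ectomesenchyme (2.43 ± 0.68, edgeR adjusted p = 0.0236; 0.210 and 0.0518 without the 20 and 24 hpf libraries; lost in 5 of 18 alternatives). Its age slope in crest was -0.10 ± 0.02 per hour (edgeR adjusted p = 0.0399), a call lost in 7 of 15 alternatives: without the 12, 14, 18, 24 or 30 hpf library (0.0686 to 0.152), with no filter on low counts (0.0530) and in all cells (0.0974).

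The 18 transduction genes tested had the lowest share called of the list's parts in each comparison with ectomesenchyme. Against pigment and against pouch 0 were called by edgeR or DESeq2, with 1 at an unadjusted p under 0.05 in each. Of all genes 21.4% and 13.6% were called there by edgeR. The share called lower than in epithelium was 11.1%, near the 12.2% of all genes. Against epithelium 2 were lower in ectomesenchyme: map2k1, which encodes a MAP kinase kinase (-3.75 ± 0.73, edgeR adjusted p = 0.00323; lost without the 20 hpf library at 0.0710 and without the second 18 hpf library at 0.119), and the adaptor gene shc1 (-1.26 ± 0.36, 0.0309; lost in 8 of 18 alternatives, among them those without the 20 hpf library at 0.219, without the second 18 hpf library at 0.407, without the library block at 0.242 and by DESeq2 at 0.0535). In ectomesenchyme the phosphatase gene ptpn11b fell with age (-0.53 ± 0.09 per hour, edgeR adjusted p = 0.0373; lost without the 20 hpf library at 0.0588 and without the 24 hpf library at 0.210).

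Of 14 feedback and target genes of the list tested, 6 were higher in ectomesenchyme than in pigment, 6 lower than in pouch and 4 lower than in epithelium, and 8, 8 and 10 were not called. As shares these are 42.9%, 42.9% and 28.6%, beside the 8.96%, 9.26% and 12.2% of all genes called in the same direction. il17rd, the gene of the pathway inhibitor Sef, had 2 counts in all of pigment and stood at 12.8, 21.2 and 34.9 CPM in the ectomesenchyme of the same 3 libraries (edgeR adjusted p = 0.00139). etv1, the third ETS gene of its group, had 1 count in the ectomesenchyme of these libraries and 49.0 and 23.5 CPM in pouch (edgeR adjusted p = 9.9e-05) and 17.3, 18.9 and 18.4 CPM in epithelium (0.000132). dusp5 was called higher in ectomesenchyme than in pigment (1.70 ± 0.50, edgeR adjusted p = 0.0294) but with gates at 1 UMI it was called lower (-2.09; 0.00428), so its direction depends on the gate, and the call was lost without the 20 hpf library (0.334), by DESeq2 (0.0763) and in a fit on the 2 gates alone (0.0551). The immediate-early genes ier2b (1.73 ± 0.33, 0.00326) and fosab (1.23 ± 0.26, 0.00501) were higher in ectomesenchyme than in pigment in 3 of 3 libraries by the same test, and neither call held without the 20 hpf library (0.0844 and 0.135), nor that of ier2b with gates at 1 UMI (0.117). fosab was also called rising with age in crest (0.11 ± 0.02 per hour, edgeR adjusted p = 0.0406), but not without the 12, 14, 24 or 30 hpf library (0.0794 to 0.151). Such genes also respond to cell dissociation, and the part of handling in their values was not tested. The summed level of 5 of them (fosab, egr1, ier2a, ier2b and dusp1) in ectomesenchyme was 1957 CPM at 18 hpf, 1187 CPM in the second 18 hpf library and 1391 to 2494 CPM in the other 4.

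Which genes had the most similar profiles was asked over the 14 profiles of gate and library, by Pearson's r of log2 CPM among 4033 genes with a mean of at least 20 CPM. Profiles of a library share its chemistry and depth, so the values are descriptions. etv4 was most like nanos1 (r = 0.979), ifi30 (0.960) and nectin3b (0.941), and spry2 most like sumo3b (0.973), sub1a (0.964) and banf1 (0.957). fgf20b was most like igfbp5b (0.936), col2a1b (0.923) and irf2bp2b (0.919), fgfr1a most like asxl1 (0.937), ptprk (0.929) and ier2b (0.926), and fgfr2 most like cks2 (0.930), junbb (0.928) and ajuba (0.913). The leading values were lower for etv5b (smc5, 0.881; mdc1, 0.863; flrt3, 0.857), fgfr3 (dmbx1a, 0.831; irx7, 0.819; zgpat, 0.816) and spry4 (zgc:63470, 0.817; atf3, 0.807; eif1ad, 0.802). dusp6 was most like 3 genes known by clone names, zgc:110425 (0.920), si:dkey-108k21.10 (0.914) and si:dkey-42i9.6 (0.906). No member was among the 3 genes most like another member. The filter partly set this, since fgfbp2a and members with a mean under 20 CPM, such as fgfr3, could not be listed.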

How the data were processed

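Whole-number UMI counts per gene and cell were deposited by the authors in 2 tables, unnormalised. Per the labels and the study's methods, reads were mapped to GRCz11 with Cell Ranger, and the 6 timeline libraries were aggregated before deposit; Seurat version 3 is also listed in the submitters' processing notes. Cell Ranger's aggregation can thin libraries to a like depth, and whether it did is not given in the sources used here. Cells of the timeline table were assigned to libraries by the barcode suffix, matched to the sample number in the labels, and 0 columns were left unmatched. A filter at 500 genes and 10% mitochondrial counts removed 0 cells, and 1 barcode was shared between libraries (12 and 14 hpf). No doublet caller was run; cells that passed 2 gates were left out.

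Counts were summed per library and gate (at least 10 cells) over the 16600 genes in both tables and tested with edgeR 4.0.16 (R 4.3.3; TMM, filterByExpr, glmQLFit and glmQLFTest, library as a block, 14 profiles, 5 residual degrees of freedom). Age slopes used 6 crest or 5 ectomesenchyme profiles of the timeline (4 and 3 degrees of freedom). Adjusted p-values cover all genes tested. Libraries are the unit, and since no 2 share an age and chemistry, the spread also holds age and chemistry. The same-library pairing comes from the design. Alternatives were DESeq2 1.42.0, RLE scaling, other gates, filters and fits, and each library left out. The tests were checked on simulated data. The members and lists were chosen with earlier results of these data known. The 9 members tested between gates and the 10 tested with age are given in each comparison, with up to 6 called genes of the wider list of the same sign in every library, and the 3 most similar genes. No sequences were printed, since none of the files' build was used here.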

Additional observations from a re-analysis of the deposited data

How the results depend on the processing

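The members gave 838 values under the alternatives, and 765 kept their direction and side of the threshold. Not all alternatives could move a value, so the 765 are not all tests passed. No gate of the 12 hpf library held enough cells for a profile, so gate comparisons without it refit the same data. The 14, 18 and 30 hpf libraries of the timeline gave only an ectomesenchyme profile. Under the library block such a profile bears on no gate difference directly. The timeline table alone nearly repeated the fit without the second 18 hpf library. Counts of called genes moved by more than 1.5 times as follows. With no filter on low counts there were 1803 against pouch, 2289 against epithelium, 339 between pouch and epithelium and 481 for age in ectomesenchyme. With gates at 1 UMI 17 and without the library block 25 were called between pouch and epithelium. DESeq2 called 773 for age in crest and 255 in ectomesenchyme. All cells of each library gave 463 for age in crest, the second 18 hpf library added to the line gave 130 in ectomesenchyme, and the timeline table alone, added after seeing the data, gave 827 against epithelium. Leaving out 1 library each gave 486 to 1982 genes against pigment (main 1673), 600 to 1065 against pouch (1062), 679 to 1921 against epithelium (1414), 38 to 93 between pouch and epithelium (82), 35 to 427 for age in crest (290) and 13 to 87 in ectomesenchyme (69). The lowest counts came without the 20 hpf library in the 4 gate comparisons and without the 14 hpf library in both age lines; the cause was not tested. Apart from dusp5, called in both directions (-2.09 with gates at 1 UMI), the values that changed sign did not pass either way. Against pigment, fgfr3 was -0.50 with gates at 1 UMI and -0.17 to 0.35 with 1 library left out (lowest without 20 hpf). dusp6 was -0.32 against pouch without the library block and -0.021 in a fit on the 2 gates alone, and -0.16 against epithelium without the block. etv5b against epithelium was -0.76 to 0.23 with 1 library left out (highest without the second 18 hpf library) and 0.23 in the timeline table. Between pouch and epithelium dusp6 was 0.20 with gates at 1 UMI, 0.16 without the block, 0.077 by DESeq2 and -0.045 to 0.021 with 1 library left out. For age in crest, spry4 was 0.0015 with gates at 1 UMI, 0.0028 in all cells and -0.051 to 0.051 with 1 library left out. There etv4 was -0.015 with gates at 1 UMI, -0.00074 without the deepest 5% of cells, -0.024 without cells bearing other markers and -0.0097 to 0.037 with 1 library left out. In ectomesenchyme, with 1 library left out, fgfr2 was -0.067 to 0.036, spry2 -0.017 to 0.015 and etv4 -0.016 to 0.083. spry2 was also 0.0029 with gates at 1 UMI and 0.0060 with the second 18 hpf library, and etv4 0.013 with that library. The library block pairs profiles of the same library; without it fgf20b, fgfr2, fgfr3 and spry4 lost a call and spry2 gained one, as given above, and no other member's call changed. The pouch comparisons could not be run without the 24 hpf or second 18 hpf library or at 20 cells a profile, because fewer than 2 libraries then held both gates. Depth limits the low counts of pouch (13 cells) and epithelium (12 cells) at 24 hpf most.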

Other observations

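Cells outside all 4 gates carried Fgf genes as well. They were split by 1 marker each at 2 or more UMIs, chosen after the values were seen, and are described with no test. Ungated cells with the neural gene sox3 held more fgfr3 than ectomesenchyme. Their level lay between 50.5 CPM (24 hpf) and 99.0 CPM (14 hpf) in 5 libraries, against 4.79 to 19.5 CPM in the ectomesenchyme of those libraries. At 12 hpf, where the dlx2a gate held 4 cells, they held 28.8 CPM on 4 counts. etv4 was at 61.4, 84.2 and 72.9 CPM in the sox3 cells of the second 18 hpf, 20 hpf and 24 hpf libraries, near the levels of pouch and epithelium. It was lower at 12, 14 and 18 hpf, at 21.6, 9.43 and 14.7 CPM on 3, 2 and 3 counts, so the 2 libraries of 18 hpf differed. fgf20b was at 103 CPM in the sox3 cells of the second 18 hpf library, 28.1 CPM at 20 hpf and 11.2 CPM at 24 hpf, with 0 counts at 12, 14 and 18 hpf.

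Ungated cells with gata5, a gene of cardiac mesoderm and endoderm, were rich in fgfr2 in the second 18 hpf library (124 CPM) and at 20 hpf (94.3 CPM). Their spry2 level was 148 and 189 CPM there. At 14 hpf such cells held less fgfr2, 23.5 CPM (7.62 to 54.8) on 5 counts, and 117 CPM of spry2. Cells with lcp1, which marks leukocytes, were poor in most members but not in dusp6. In their 3 libraries spry2 was at 0 to 3.04 CPM, fgfr1a at 0 to 1.78 CPM and etv4 at 0 to 5.07 CPM, while dusp6 stood at 44.3 CPM at 18 hpf, 65.8 in the second 18 hpf library and 24.4 at 20 hpf. The dusp6 level of these cells was thus highest in the second 18 hpf library, as in the gated cells.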
